A study of Homo sapiens with 6 samples.

Results

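The 42 genes described here encode laminin chains, other matrix glycoproteins and proteoglycans, all from the non-collagen part of the extracellular matrix. They were picked by gene symbol, 1 row of the raw count table for each, out of 58395 genes in that table, and all 42 matched GENCODE release 44. By role they are 5 laminin alpha chains, 5 laminin beta and gamma chains, 4 nidogens and basement membrane heparan sulfate proteoglycans, 8 interstitial adhesive and matricellular glycoproteins, 5 fibrillins and fibulins, 4 latent TGF-beta binding proteins, 4 proteoglycans with chondroitin, dermatan or keratan sulfate chains, and 7 cell surface proteoglycans including CD44. The genes were followed in MDA-MB-231, an invasive triple-negative breast cancer cell line, after transfection with siCRP2#a, a single siRNA against CRP2 (siCRP2 cells, 3 libraries), or with a non-targeting siRNA (siCTR cells, 3 libraries). CRP2 is the product of CSRP2, an actin-bundling LIM protein. The labels place harvest 65 h after transfection, and name no other treatment or genetic change in either group. With 1 siRNA, loss of CRP2 and other effects of that siRNA cannot be told apart. The study calls the replicates biological, while the labels do not say that they came from separate cultures.

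Laminins are trimers of an alpha, a beta and a gamma chain that polymerise into the sheet of a basement membrane, where the alpha chain carries the binding sites for integrins and dystroglycan. Nidogens, perlecan and agrin bind to that sheet, while fibronectin and tenascin-C form the looser matrix that is abundant in tumour stroma and healing wounds. Fibrillin microfibrils and the latent TGF-beta binding proteins (LTBPs) hold growth factor complexes in the matrix, and the glycosaminoglycan chains of syndecans, glypicans and other proteoglycans bind growth factors and matrix proteins at the cell surface.

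The libraries held 18346442 to 39115778 counts in siCRP2 cells and 17336798 to 25321830 in siCTR cells, so that 1 count was worth 0.0256 to 0.0582 CPM (counts scaled to the library total, corrected by TMM factors). CSRP2 mRNA stood at 2.17, 1.78 and 1.89 CPM in siCRP2 cells, against 13.7, 11.7 and 11.4 CPM in siCTR cells (log2 fold change -2.66, SE 0.178, adjusted p = 2.42e-08). The column names carry 3 codes, each shared by 1 siCRP2 and 1 siCTR library. They are called A, B and C here, and values of a group are given throughout in that order. The 8 genes taken as markers of MDA-MB-231 averaged 288 to 1869 CPM. Among them AXL (264 against 549 CPM, adjusted p = 3.09e-06) and S100A4 (670 against 939 CPM, adjusted p = 0.00608) were lower in siCRP2 cells and 0 were higher. The hormone receptor genes ESR1 and PGR had at most 3 counts in either group, whereas CDH1, EPCAM, GATA3 and ERBB2, taken as low in this line, averaged 14.0 to 90.4 CPM in either group. CDH1 was higher in siCRP2 cells (33.2 against 17.4 CPM, adjusted p = 0.000652). The 14 markers of fibroblasts, endothelial cells and immune cells summed to 25.1 to 26.2 CPM in siCRP2 libraries and to 67.0 to 83.2 CPM in siCTR libraries. Of these, PDGFRB, PECAM1, KDR and CD14 were lower in siCRP2 cells and none was higher, while PDGFRA, THY1, DPT and CD3E had at most 3 counts in either group. The part of this shift in the values below was not tested, and in bulk RNA fewer cells that express a gene and less RNA per cell cannot be told apart.

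Of the 42 genes, 38 were seen in 2 or more of the 3 siCRP2 libraries or of the 3 siCTR libraries and entered the test, NID1 only through its siCRP2 libraries. At an adjusted p under 0.05 (edgeR's quasi-likelihood test, adjusted over 23806 genes), 8 of the 38 were lower in siCRP2 cells: the laminin chain LAMA5, the matricellular proteins TNC and THBS2, the fibulin EFEMP2, the latent TGF-beta binding proteins LTBP1, LTBP3 and LTBP4, and the syndecan SDC3. This is 21.1% of the 38, beside 11.5% lower among all genes tested. The 3 that were higher were the laminin chain LAMA2, the fibrillin FBN1 and the glypican GPC1, 7.89% beside 12.5% of all genes. The other 27 passed in neither direction. The shares of all genes include genes of few counts, as 13196 of the 23806 had a mean of at least 1 CPM. Among protein-coding genes at that level, 2148 of 11887 were lower and 2803 higher, beside 8 and 3 of 33 tested members. The part of expression level in the shares was not tested. The median log2 fold change of the 38 genes was -0.26 and 30 of them lay below 0, whereas the median over all genes tested was -0.022. The libraries of the groups did not overlap for 11 of the 38 with siCRP2 lower (28.9%, beside 18.0% of all genes) and for 4 with siCRP2 higher (10.5%, beside 19.4%). When the libraries were paired by code, 16 of the 38 were lower (17.8% of all genes) and 5 were higher (19.5% of all genes), and these held all 11 genes called without the pairing.

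**Figure D1:**
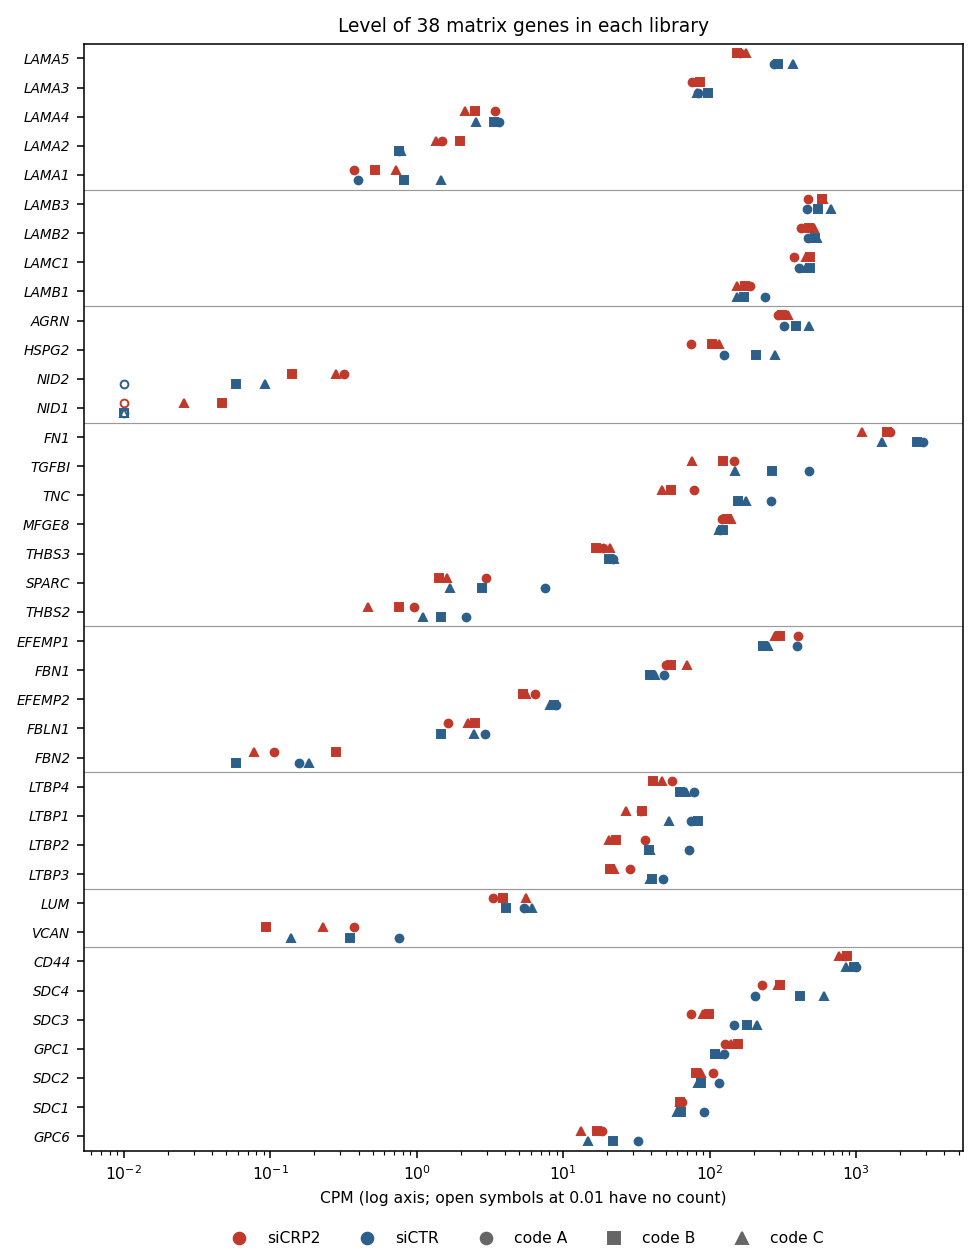
CPM of the 38 tested genes in each of the 6 libraries, on a log axis, grouped by role between the horizontal lines (siCRP2 red, siCTR blue, 1 symbol for each code). The groups are apart for LAMA5, TNC and the latent TGF-beta binding proteins, while the laminin beta and gamma chains lie on top of each other.

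**Figure D2:**
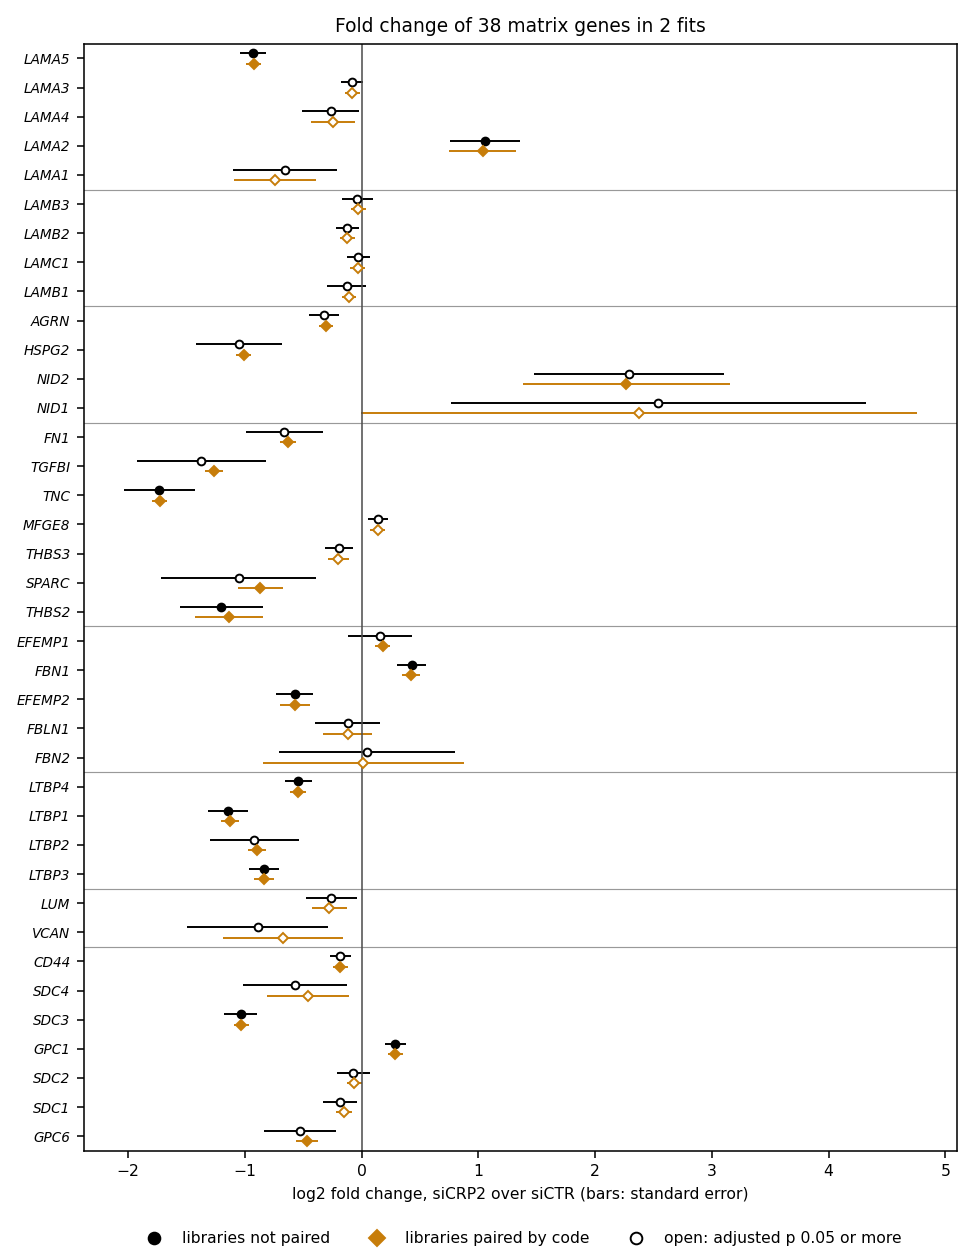
Log2 fold change, siCRP2 over siCTR, with its standard error for the same genes, without pairing (black circles) and with libraries paired by code (orange diamonds), filled where the adjusted p was under 0.05. The fold changes of both fits lie close together, and the bars of the paired fit are the shorter ones for abundant genes.

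Among the laminin alpha chains, which decide what a laminin binds on the cell, LAMA5 was lower and LAMA2 was higher in siCRP2 cells. LAMA5 (ENSG00000130702; GRCh38 chromosome 20, 62307955 to 62367312, minus strand), the alpha chain of most adult epithelial and vascular basement membranes, had 162, 153 and 176 CPM in siCRP2 cells, against 273, 291 and 373 CPM in siCTR cells. Each siCRP2 library lay below each siCTR library, and the difference was 1.91-fold (log2 fold change -0.93, SE 0.111, adjusted p = 2.43e-05). LAMA2 (ENSG00000196569; chromosome 6, 128883138 to 129516566, plus strand), the alpha chain of muscle and nerve basement membranes, had 1.48, 1.97 and 1.36 CPM in siCRP2 cells, against 0.750, 0.757 and 0.778 CPM in siCTR cells. The groups did not overlap, at a level close to the lower end of the 38 genes (log2 fold change 1.06, SE 0.298, adjusted p = 0.0150). Without the siCRP2 library B, the highest one, the adjusted p of LAMA2 was 0.0867. LAMA3, the alpha chain of the laminin in epithelial anchoring structures, did not pass, with 75.9, 86.3 and 85.1 CPM in siCRP2 cells, against 83.3, 97.0 and 81.7 CPM in siCTR cells (log2 fold change -0.082, SE 0.0938, adjusted p = 0.597). LAMA4 and LAMA1 were near or below 4 CPM in every library and passed in neither direction (log2 fold changes -0.26 and -0.66).

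Per exon length (RPKM, CPM divided by the length in kilobases of all annotated exons of a gene, merged), LAMA5 and LAMA3 made up nearly all alpha chain mRNA. This length can exceed that of a single transcript, so RPKM ranks, sums and shares depend on it. LAMA5 took 65.5% ± 2.17 of the summed alpha chain RPKM in siCRP2 cells and 77.1% ± 3.76 in siCTR cells, and LAMA3 took 32.6% ± 2.19 and 21.6% ± 3.59 in the same order of groups (SD, n = 3 libraries each). The summed alpha chain RPKM was 16.9, 17.0 and 18.5 in siCRP2 cells, against 25.2, 27.4 and 32.1 in siCTR cells. These sums do not overlap, and their means stand in the ratio 0.619.

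None of the beta and gamma chains that join those alpha chains passed the test. LAMB3, the beta chain found with LAMA3, had 472, 582 and 591 CPM in siCRP2 cells, against 462, 553 and 670 CPM in siCTR cells (log2 fold change -0.035, SE 0.135, adjusted p = 0.890). LAMB2, a beta chain of the neuromuscular junction and kidney filter, had 418, 475 and 512 CPM in siCRP2 cells, against 465, 525 and 537 CPM in siCTR cells (log2 fold change -0.12, SE 0.0958, adjusted p = 0.409). LAMC1, the gamma chain of most laminins, had 377, 483 and 455 CPM in siCRP2 cells, against 407, 480 and 454 CPM in siCTR cells (log2 fold change -0.028, SE 0.101, adjusted p = 0.884). In all of these the groups overlap, and the A library was the lowest of its group. LAMB1, the beta chain of early and widespread laminins, averaged 172 ± 17.0 CPM in siCRP2 cells and 188 ± 44.8 CPM in siCTR cells (SD, n = 3 each; log2 fold change -0.13, adjusted p = 0.654). LAMC3, a gamma chain of brain and peripheral tissues, had 0 counts in all 6 libraries, where 3 counts would be 0.0768 to 0.175 CPM. The summed RPKM of the beta and gamma chains was 247 ± 26.2 in siCRP2 cells and 258 ± 28.3 in siCTR cells, a ratio of 0.958.

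**Figure D3:**
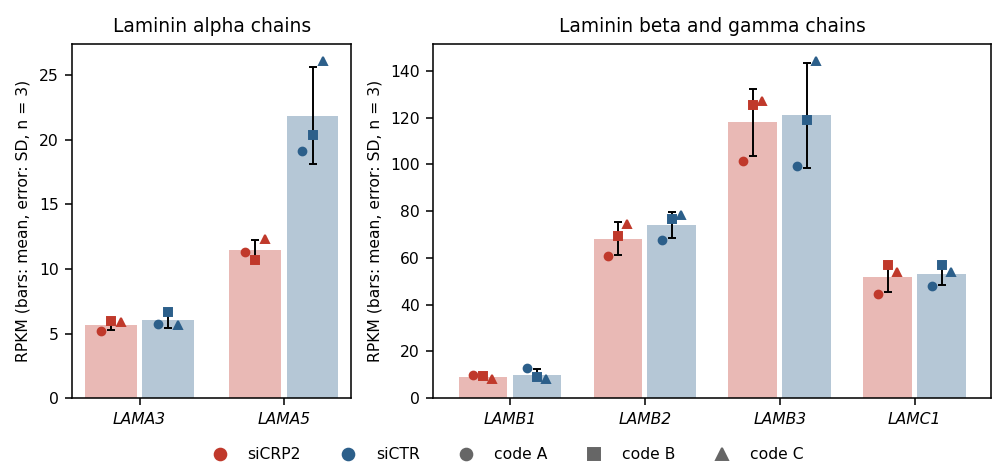
RPKM of the 6 more abundant laminin chains (bars: mean of 3 libraries, error bars: SD, points: single libraries). LAMA5 stands at 11.4 RPKM in siCRP2 cells and 21.8 RPKM in siCTR cells, whereas the siCRP2 and siCTR points overlap for LAMA3, LAMB1, LAMB2, LAMB3 and LAMC1.

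Of the molecules that bind to the laminin sheet, perlecan was lower in siCRP2 cells in each code pair, and whether it passed depended on the fit. HSPG2, which encodes perlecan, the large heparan sulfate proteoglycan of basement membranes, had 74.8, 104 and 115 CPM in siCRP2 cells, against 126, 208 and 277 CPM in siCTR cells. No siCRP2 library reached a siCTR library, yet both groups spread widely and the A library was the lowest in each (log2 fold change -1.05, SE 0.366, adjusted p = 0.129). Paired by code the log2 fold change was -1.01 (SE 0.0642, adjusted p = 4.14e-53), and without the siCTR library A the adjusted p was 0.00999. Unpaired it also passed under DESeq2, the edgeR exact test, limma voom and the filterByExpr filter (adjusted p = 0.0114, 0.000346, 0.0192 and 0.0376). HSPG2 shares 11.7% of its exon bases with LDLRAD2 on the opposite strand, which had 0 counts in siCRP2 cells and 5 in siCTR cells. AGRN encodes agrin, the proteoglycan that clusters acetylcholine receptors at the neuromuscular junction, and had 293, 311 and 340 CPM in siCRP2 cells, against 320, 386 and 475 CPM in siCTR cells. Here the groups overlapped by 1 library (log2 fold change -0.32, SE 0.128, adjusted p = 0.0963), and the gene passed in the paired fit (log2 fold change -0.31, SE 0.0629, adjusted p = 6.41e-06) and without the siCTR library A (adjusted p = 0.00279). Unpaired it also passed with no filter on low counts (adjusted p = 0.00322).

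The nidogens, which bridge laminin and type IV collagen, were almost silent. NID1 had 0, 1 and 1 counts in siCRP2 cells and 0 counts in each siCTR library, too few for a fold change. NID2 had 6, 3 and 11 counts in siCRP2 cells, against 0, 1 and 2 counts in siCTR cells, a ratio of 5.41 after scaling (exact 95% interval 1.61 to 28.4, for counting error only). It missed the threshold in the unpaired quasi-likelihood test (adjusted p = 0.0503) and passed it paired (adjusted p = 0.0292) or without the siCTR library C (adjusted p = 0.0389). Unpaired it also passed under the edgeR exact test, limma voom and with no filter on low counts (adjusted p = 0.0312, 0.0451 and 0.0388). It did not pass in thinned libraries (adjusted p = 0.145). Of the exon bases of NID2, 30.7% are shared with RTRAF on the opposite strand, which stood at 233 CPM in siCRP2 cells and at 195 CPM in siCTR cells (adjusted p = 0.0318). The study's methods describe a stranded library kit and the labels a standard one, and the strand setting of the count is not given in the sources used here, so whether reads of the overlapping genes were separated is not known.

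Tenascin-C showed the largest fall among the members that passed unpaired. TNC (ENSG00000041982; chromosome 9, 115019575 to 115118207, minus strand), an anti-adhesive glycoprotein of tumour stroma and wounds, had 77.8, 54.7 and 47.0 CPM in siCRP2 cells, against 262, 156 and 177 CPM in siCTR cells. The highest siCRP2 library was far below the lowest siCTR library, and the fall was 3.33-fold (log2 fold change -1.73, SE 0.304, adjusted p = 0.0171). Without the siCTR library C the adjusted p was 0.0542 with a log2 fold change of -1.81. THBS2, an inhibitor of blood vessel growth, had 0.952, 0.751 and 0.461 CPM in siCRP2 cells, against 2.17, 1.46 and 1.10 CPM in siCTR cells. The groups did not overlap at these low levels (log2 fold change -1.20, SE 0.356, adjusted p = 0.0199), and the adjusted p was 0.0531, 0.115, 0.103 and 0.0523 without siCRP2 B, siCRP2 C, siCTR A and siCTR B. THBS2 shares 31.3% of its exon bases with THBS2-AS1 on the other strand, which had 4 counts in siCRP2 cells and 8 in siCTR cells.

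FN1, TGFBI and SPARC were lower in siCRP2 cells within each code pair. They passed in the paired fit and did not pass in the unpaired quasi-likelihood test, and their levels also differed between codes in both groups. FN1, which encodes fibronectin, the main integrin ligand of loose matrix, was the member with the most counts, at 1697, 1625 and 1098 CPM in siCRP2 cells, against 2870, 2622 and 1492 CPM in siCTR cells. The C siCTR library lay below 2 of the siCRP2 libraries, and the log2 fold change was -0.66 (SE 0.326, adjusted p = 0.248). Paired by code it was -0.63 (SE 0.0649, adjusted p = 5.82e-21), and without the siCTR library C it was -0.90 (adjusted p = 0.00642). Unpaired it passed under DESeq2 and the edgeR exact test (adjusted p = 0.00806 and 0.0269). TGFBI, a TGF-beta-induced adhesion protein that binds integrins and collagens, had 146, 124 and 75.9 CPM in siCRP2 cells, against 477, 268 and 148 CPM in siCTR cells. The groups were separate by a narrow margin and the codes ranked the same way in both (log2 fold change -1.37, SE 0.551, adjusted p = 0.177; paired -1.26, SE 0.0774, adjusted p = 4.94e-21). Unpaired it passed under DESeq2, the edgeR exact test and limma voom (adjusted p = 0.0305, 0.00122 and 0.0276).

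SPARC, a collagen-binding matricellular protein, had 2.96, 1.41 and 1.61 CPM in siCRP2 cells, against 7.50, 2.80 and 1.69 CPM in siCTR cells. Code C showed almost no difference and code A the largest one (log2 fold change -1.05, SE 0.662, adjusted p = 0.345; paired -0.87, SE 0.193, adjusted p = 3.44e-05). THBS3, a thrombospondin of bone and cartilage, averaged 18.8 ± 2.01 CPM in siCRP2 cells and 21.6 ± 0.826 CPM in siCTR cells (SD, n = 3 each; log2 fold change -0.20, adjusted p = 0.269). It shares 25.9% of its exon bases with THBS3-AS1, which had 42 counts in siCRP2 cells and 46 in siCTR cells. MFGE8, which tags dying cells for uptake, averaged 131 ± 9.21 CPM in siCRP2 cells and 119 ± 3.59 CPM in siCTR cells (log2 fold change 0.14, adjusted p = 0.259). POSTN, the periostin gene of stromal fibroblasts, had 1 count in all, in a siCRP2 library.

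**Figure D4:**
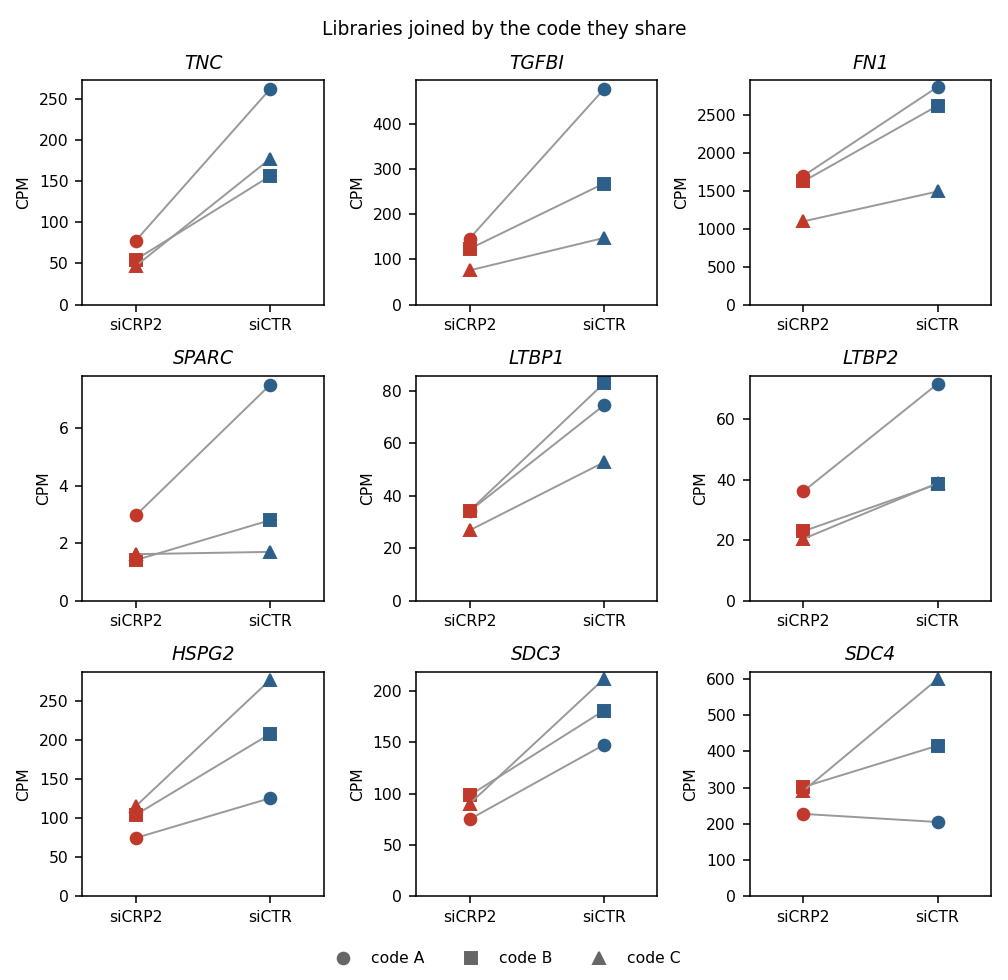
CPM of 9 genes in each library, with libraries of the same code joined (siCRP2 left, siCTR right, each axis from 0). In TGFBI, FN1, LTBP2 and HSPG2 the lines run apart from each other, but each siCRP2 library lies below the siCTR library of its code, whereas SDC4 was nearly level in code A and lower in siCRP2 cells in codes B and C.

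Fibrillins and fibulins, the microfibril and elastic fibre proteins, moved in both directions. FBN1, the main microfibril protein, had 50.6, 54.6 and 69.7 CPM in siCRP2 cells, against 48.5, 39.2 and 42.1 CPM in siCTR cells. The groups were separate by a narrow margin, with a difference close to 0 in code A (log2 fold change 0.43, SE 0.123, adjusted p = 0.0180). Leaving out siCRP2 B, siCRP2 C, siCTR B or siCTR C gave FBN1 an adjusted p of 0.0651, 0.189, 0.105 or 0.0528. EFEMP2, the fibulin needed for elastin assembly, had 6.45, 5.30 and 5.56 CPM in siCRP2 cells, against 8.93, 8.68 and 8.10 CPM in siCTR cells. All siCRP2 libraries were lower than all siCTR libraries (log2 fold change -0.57, SE 0.159, adjusted p = 0.0135), and the adjusted p was 0.0501 without siCRP2 C and 0.0507 without siCTR B.

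EFEMP1, a fibulin of fascia and retina, held 94.6% of the summed RPKM of this group in siCRP2 cells and 94.4% in siCTR cells. It had 402, 301 and 277 CPM in siCRP2 cells, against 396, 231 and 250 CPM in siCTR cells, with code A highest in either group. The log2 fold change was 0.16 (SE 0.274, adjusted p = 0.747), and it passed as higher in the paired fit (0.18, SE 0.0629, adjusted p = 0.0122) and without the siCTR library A (0.44, adjusted p = 0.0454). FBLN1, a fibulin of basement membranes and elastic fibres, averaged 2.12 CPM in siCRP2 cells and 2.28 CPM in siCTR cells (adjusted p = 0.810). FBN2, the fibrillin of fetal tissue, had 11 counts in siCRP2 cells and 9 in siCTR cells, a ratio of 0.992 (95% interval 0.374 to 2.71).

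The latent TGF-beta binding proteins were the role group with the highest share of called members, 3 of 4 lower in siCRP2 cells unpaired (beside 11.5% of all genes) and 4 of 4 paired (beside 17.8%). LTBP1 (ENSG00000049323; chromosome 2, 32946953 to 33399509, plus strand), which tethers latent TGF-beta to fibronectin and fibrillin, had 34.1, 34.3 and 26.8 CPM in siCRP2 cells, against 74.5, 82.9 and 52.8 CPM in siCTR cells. The fall was 2.21-fold, with no overlap (log2 fold change -1.15, SE 0.172, adjusted p = 0.00118). LTBP3, a close relative that also binds the latent complex, had 28.5, 21.0 and 22.3 CPM in siCRP2 cells, against 48.3, 40.6 and 38.8 CPM in siCTR cells (log2 fold change -0.84, SE 0.128, adjusted p = 0.000133). LTBP4, which takes part in elastic fibre assembly, had 55.7, 41.0 and 47.5 CPM in siCRP2 cells, against 78.0, 62.6 and 68.9 CPM in siCTR cells (log2 fold change -0.54, SE 0.116, adjusted p = 0.00265). Both were lower in all siCRP2 libraries than in any siCTR library, LTBP4 by the smaller fold.

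LTBP2, the relative that does not bind latent TGF-beta, had 36.1, 22.9 and 20.4 CPM in siCRP2 cells, against 71.6, 38.5 and 38.8 CPM in siCTR cells. The groups did not overlap, and code A was far above the other codes in either of them (log2 fold change -0.92, SE 0.380, adjusted p = 0.181; paired -0.89, SE 0.0802, adjusted p = 2.37e-27). Unpaired it passed under the edgeR exact test and limma voom (adjusted p = 0.00565 and 0.0234) and not under DESeq2 (adjusted p = 0.0521). Summed over the 4 genes, RPKM was 17.9, 14.1 and 13.7 in siCRP2 cells, against 31.8, 26.8 and 23.3 in siCTR cells, a ratio of means of 0.558. The calls of LTBP1, LTBP3 and LTBP4, like those of LAMA5 and SDC3, held under all 16 alternative settings, each leave-one-out included.

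Since the log2 fold changes of these 4 genes were all below 0 and 3 of them were called, their promoters (RefSeq, GRCh38.p14, 250 bases before to 50 after the RefSeq start, gene strand) are shown, with GGGCGG on either strand in capitals. They lie at chr2:32946703-32947002 (LTBP1, plus), chr14:74612188-74612487 (LTBP2, minus), chr11:65558310-65558609 (LTBP3, minus) and chr19:40592916-40593215 (LTBP4, plus).
LTBP1: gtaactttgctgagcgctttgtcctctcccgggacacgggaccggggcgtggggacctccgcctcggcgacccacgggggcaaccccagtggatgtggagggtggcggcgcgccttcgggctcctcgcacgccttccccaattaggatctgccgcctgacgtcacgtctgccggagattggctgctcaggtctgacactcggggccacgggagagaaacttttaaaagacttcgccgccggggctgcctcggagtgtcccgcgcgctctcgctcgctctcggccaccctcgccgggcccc
LTBP2: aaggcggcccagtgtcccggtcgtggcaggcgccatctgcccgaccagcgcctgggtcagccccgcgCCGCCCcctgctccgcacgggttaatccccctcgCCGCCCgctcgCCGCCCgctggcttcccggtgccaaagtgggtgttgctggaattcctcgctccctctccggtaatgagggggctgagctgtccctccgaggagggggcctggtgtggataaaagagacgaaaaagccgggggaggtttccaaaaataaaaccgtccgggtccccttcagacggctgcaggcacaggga
LTBP3: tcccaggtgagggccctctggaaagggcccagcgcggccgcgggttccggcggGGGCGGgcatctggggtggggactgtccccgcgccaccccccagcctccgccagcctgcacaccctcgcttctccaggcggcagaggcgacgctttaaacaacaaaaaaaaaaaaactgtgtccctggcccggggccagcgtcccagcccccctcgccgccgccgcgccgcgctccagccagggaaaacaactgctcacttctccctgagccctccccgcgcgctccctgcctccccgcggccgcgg
LTBP4: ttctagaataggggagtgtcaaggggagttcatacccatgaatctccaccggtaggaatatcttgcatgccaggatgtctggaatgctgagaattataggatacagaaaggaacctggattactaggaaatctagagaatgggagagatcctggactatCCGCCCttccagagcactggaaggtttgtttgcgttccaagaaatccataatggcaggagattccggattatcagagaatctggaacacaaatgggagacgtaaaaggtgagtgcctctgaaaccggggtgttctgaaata
The GC box GGGCGG, read on both strands, occurs 0, 3, 1 and 1 times in LTBP1, LTBP2, LTBP3 and LTBP4. It was found in 27 of the 35 members with a promoter in the RefSeq table (77.1%), beside 45.0% of all 35116 promoters. The CArG box, the element read by serum response factor, was found in 0 of the 35 and in 1.29% of all promoters. TGANTCA, the AP-1 element, was in 2 of the 35 (5.71%, beside 7.71%) and TATAAA in 3 (8.57%, beside 11.5%). A CArG box can contain TATAAA, while the other motifs share no stretch with each other, and a match or its absence in this window says nothing on binding of a factor.

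Proteoglycans with chondroitin, dermatan or keratan sulfate chains, typical products of fibroblasts, were scarce. LUM, the keratan sulfate proteoglycan lumican that spaces collagen fibrils, averaged 4.28 ± 1.18 CPM in siCRP2 cells and 5.18 ± 1.02 CPM in siCTR cells (SD, n = 3 each; log2 fold change -0.26, adjusted p = 0.447). VCAN, the large hyaluronan-binding proteoglycan versican, had 18 counts in siCRP2 cells and 28 in siCTR cells, a ratio of 0.522 (95% interval 0.272 to 0.977, for counting error only), and did not pass (adjusted p = 0.329). DCN and BGN, the small leucine-rich proteoglycans decorin and biglycan, had 1 count each in all 6 libraries. The single count of BGN came from a siCRP2 library and that of DCN from a siCTR library.

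At the cell surface, SDC3 was lower and GPC1 was higher in siCRP2 cells. SDC3 (ENSG00000162512; chromosome 1, 30869466 to 30908758, minus strand), a heparan sulfate syndecan best known from nerve and muscle, had 75.1, 98.3 and 90.1 CPM in siCRP2 cells, against 148, 181 and 212 CPM in siCTR cells. The groups lay far apart and the fall was 2.05-fold (log2 fold change -1.03, SE 0.140, adjusted p = 0.000424). GPC1, a lipid-anchored heparan sulfate proteoglycan that binds growth factors, had 127, 155 and 140 CPM in siCRP2 cells, against 125, 108 and 113 CPM in siCTR cells. The libraries of code A were nearly equal, and the groups were separate by that margin (log2 fold change 0.29, SE 0.0928, adjusted p = 0.0304). The call of GPC1 was lost without siCRP2 B, siCRP2 C, siCTR B or siCTR C (adjusted p = 0.268, 0.136, 0.147 and 0.0592), and under DESeq2, the edgeR exact test, limma voom and the filterByExpr filter (adjusted p = 0.0589, 0.0591, 0.0521 and 0.0667).

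SDC4, the syndecan of focal adhesions, was the most abundant member per merged exon length over all 6 libraries. Its mean was 105 RPKM in siCRP2 cells and 156 RPKM in siCTR cells, although in siCRP2 cells alone LAMB3 was higher at 118 RPKM. The rank depends on the length used. For SDC4 the merged exons and the canonical transcript both have 2613 bases, whereas for FN1 they have 17216 and 8390. Ranks by transcript length were not computed. SDC4 had 228, 302 and 291 CPM in siCRP2 cells, against 205, 416 and 599 CPM in siCTR cells. The codes went in different directions, with siCRP2 above siCTR in A and below it in B and C (log2 fold change -0.57, SE 0.443, adjusted p = 0.454). Pairing did not bring it past the threshold (adjusted p = 0.493), whereas leaving out the siCTR library A did (log2 fold change -0.89, adjusted p = 0.00807). CD44, the hyaluronan receptor and a part-time proteoglycan, had 839, 867 and 769 CPM in siCRP2 cells, against 993, 963 and 851 CPM in siCTR cells. It was lower by a little in each code pair and the groups overlapped by 1 siCTR library (log2 fold change -0.18, SE 0.0920, adjusted p = 0.178; paired -0.18, SE 0.0636, adjusted p = 0.0139).

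SDC2, a syndecan of fibroblasts and endothelium, had 105, 80.0 and 87.2 CPM in siCRP2 cells, against 116, 87.3 and 82.7 CPM in siCTR cells, which overlap (log2 fold change -0.071, SE 0.143, adjusted p = 0.777). SDC1, the main syndecan of epithelia, averaged 63.3 ± 0.977 CPM in siCRP2 cells and 71.6 ± 17.5 CPM in siCTR cells (SD, n = 3 each; log2 fold change -0.18, adjusted p = 0.428). GPC6, a glypican of growing bone and other tissues, had 18.4, 16.9 and 13.2 CPM in siCRP2 cells, against 32.6, 21.8 and 14.8 CPM in siCTR cells. Its groups overlapped and the codes ranked the same way in both (log2 fold change -0.53, SE 0.307, adjusted p = 0.299), and it passed paired (-0.46, SE 0.0945, adjusted p = 5.09e-06) or without the siCTR library C (adjusted p = 0.00799). With no filter on low counts it also passed unpaired (adjusted p = 0.00236).

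Summed over all members, RPKM was 783, 824 and 775 in siCRP2 cells, against 982, 990 and 1013 in siCTR cells, and the means stood in the ratio 0.798. The sums of interstitial glycoproteins and LTBPs stood in the ratios 0.593 and 0.558, those of the nidogen and basement membrane proteoglycan group and of the cell surface group in 0.727 and 0.777, the chondroitin, dermatan and keratan sulfate group in 0.824 and fibrillins and fibulins in 1.11. Among the role groups, the siCRP2 and siCTR sums were apart for the laminin alpha chains and the LTBPs and overlapped for the other 6. Each sum is led by its most abundant genes, as FN1 with 67.0% of the interstitial RPKM in siCRP2 cells and 63.0% in siCTR cells. Of the 33 tested members with a mean of at least 1 CPM, 20 were lower in siCRP2 cells in all 3 code pairs (60.6%), 5 were higher in all 3 (15.2%) and 8 were mixed (24.2%). Among all 13196 genes at that level, 33.9% were lower and 42.3% were higher in all 3 pairs.

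The paired fit left 2 residual degrees of freedom and a median prior of infinite degrees of freedom, against 4 and 12.7 without the pairing. Most genes thus shared 1 estimate of the spread, and the small standard errors of the paired fit rest on that estimate and not on the 3 differences of the gene itself. With limma voom and the same pairing, added after the data were seen, 16 members were lower and 5 higher as well. The adjusted p of TGFBI was then 0.0419, close to the threshold, while those of FN1 and HSPG2 were 4.41e-18 and 2.66e-17.

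The heptamer GCCTCAC was looked up in the canonical transcripts because it had earlier been picked, from the fold changes of these same libraries, as a sequence more frequent in lower genes, so its share among the members is a description only. It was present in 5 of the 8 lower members (62.5%), in 1 of the 3 higher ones and in 8 of the 22 others with a mean of at least 1 CPM. Over all protein-coding genes at that level it was present in 47.3% of those lower in siCRP2 cells, 11.8% of those higher and 22.1% of the rest. Transcripts of matrix genes are long, as that of LAMA5 with 11426 bases, and the part of length in these shares was not tested. In the 3' UTR it was present in 4 of the 8 lower members, 0 of the 3 higher ones and 2 of the 22 others. Over all protein-coding genes at that level, 26.4% of those lower, 5.1% of those higher and 9% of the rest had a copy there. The sites of these 6 members, with 7 bases on either side and the heptamer in capitals, were as follows.
LAMA5: tgcagctGCCTCACaccgccc
SDC3: gctgccaGCCTCACacagatc
TNC: agcatggGCCTCACctcctct
LTBP3: gagctcgGCCTCACttctgcc
LTBP2: ccccatgGCCTCACactgcag
AGRN: gagggctGCCTCACtgcaaat
These sites lie 44 bases (LAMA5), 150 bases (SDC3), 163 bases (TNC), 65 bases (LTBP3), 339 bases (LTBP2) and 824 bases (AGRN) after the end of the coding sequence. LTBP1, THBS2 and EFEMP2, which were lower, had no copy in their canonical transcripts. The sequence of the siRNA is not analysed here.

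Many genes on a list of laminin and fibronectin receptors were lower in siCRP2 cells. The list also holds DDR1, DDR2, CD47, CD36 and LRP1, which have other main ligands and were not counted apart. Of the 21 genes on this list, 12 were lower and 0 higher in siCRP2 cells (57.1% lower, beside 11.5% of all genes), and 16 were lower and 1 higher when paired (beside 17.8% and 19.5%). DDR1, a collagen receptor kinase also listed here, averaged 116 CPM in siCRP2 cells and 220 CPM in siCTR cells (log2 fold change -0.93, SE 0.0912, adjusted p = 1.56e-06). ITGA3, the integrin chain that pairs with ITGB1 to bind laminins with LAMA3 or LAMA5, averaged 885 CPM in siCRP2 cells and 1353 CPM in siCTR cells (log2 fold change -0.61, SE 0.0922, adjusted p = 0.000109). The integrin chains ITGA2 and ITGB3 fell by 0.68 and 1.28 on the log2 scale.

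Of 10 tested genes for TGF-beta ligands and factors of their processing, storage or release, 4 were lower (beside 11.5% of all genes) and 0 higher. When paired, 7 were lower (beside 17.8%). FURIN, the protease that processes the TGF-beta precursor, averaged 35.8 CPM in siCRP2 cells and 116 CPM in siCTR cells (log2 fold change -1.69, SE 0.130, adjusted p = 1.83e-06). TGFB1, TGFB2 and ITGAV, the integrin chain of receptors that activate latent TGF-beta, fell by 0.30, 0.60 and 0.30 on the log2 scale. ITGAV, ITGB6 and ITGB8 stand in this list and also in the receptor list.

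Of 21 other laminin-like and basement membrane genes, 6 were lower (28.6%, beside 11.5% of all genes) and 2 higher (9.52%, beside 12.5%). When paired, 7 were lower and 3 higher (beside 17.8% and 19.5%). HMCN1 (hemicentin), VWA1 (a perlecan-binding protein) and COL18A1 (the endostatin precursor) fell by 2.15, 1.38 and 0.57 on the log2 scale. The level of HMCN1 was low, with means of 0.371 CPM in siCRP2 cells and 1.63 CPM in siCTR cells. NTN4, a laminin-binding netrin, had 33.6, 35.1 and 36.2 CPM in siCRP2 cells, against 23.2, 23.4 and 23.1 CPM in siCTR cells (log2 fold change 0.59, adjusted p = 0.000395). Of 31 other matrix glycoproteins, 4 were lower (12.9%, near the 11.5% of all genes) and 2 higher (6.45%, beside 12.5%), and 11 and 4 when paired (beside 17.8% and 19.5%), of which FBLN7, MFAP3 and EDIL3 fell by 1.39, 1.04 and 0.66 and ECM1 rose by 0.51 on the log2 scale. Of 16 other proteoglycan core proteins, 3 were lower (18.8%) and 2 higher (12.5%), and 5 and 5 when paired, beside the same shares of all genes. The testicans SPOCK3 and SPOCK1 and the link protein HAPLN3 fell by 3.49, 1.32 and 0.77 on the log2 scale. Serglycin (SRGN), the proteoglycan of secretory granules, averaged 48.0 CPM in siCRP2 cells and 24.6 CPM in siCTR cells (log2 fold change 0.97, SE 0.132, adjusted p = 6.14e-05).

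**Figure D5:**
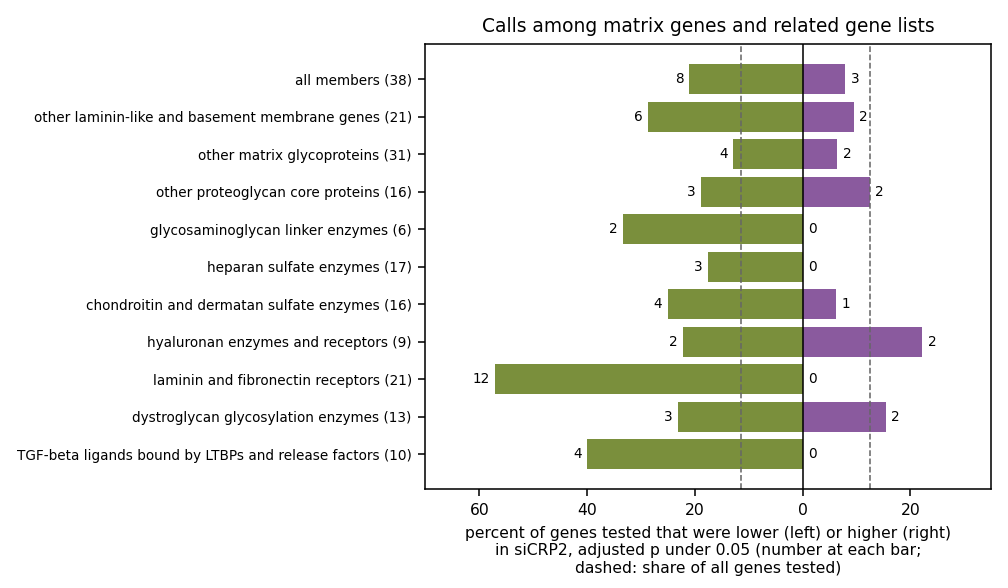
Share of the tested genes of each list that were lower (left of 0) or higher (right of 0) in siCRP2 cells at an adjusted p under 0.05, with the number of genes at each bar and the number tested in brackets. The dashed lines mark the shares among all genes tested, whatever their level (11.5% lower, 12.5% higher). The bar of the receptors extends farthest to the left, at 12 of 21.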

How the data were processed

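The authors sequenced 6 mRNA libraries of transfected cells with paired-end reads, aligned these to GRCh38 with STAR and counted reads per gene. The deposited values are raw counts. The STAR version, gene annotation and strand setting were not given in the sources used here. Columns were assigned to a group by their names, and the table held 0 other columns of values. The members and lists were chosen with earlier results of these data known.

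The 23806 genes counted in 2 or more of the 3 siCRP2 or of the 3 siCTR libraries entered the robust quasi-likelihood test of edgeR 4.0.16 in R 4.3.3 after TMM scaling, with the Benjamini-Hochberg adjustment over all of them. Lists were only counted, with no set test, and the shares of all genes beside them were not matched by expression level. CPM and RPKM were computed from the counts, with the merged length of all annotated exons of each gene from GENCODE release 44. Depth sets 1 count at 0.0256 to 0.0582 CPM, replicate libraries differed well beyond counting noise (13.7 to 53.6 by chi-square over its degrees of freedom), and p-values measure only the spread between these libraries. Both fits were also run on simulated counts that held no effect of the shared code and no spread particular to a gene. That run cannot speak for the paired calls. Alternatives used limma 3.58.1 and DESeq2 1.42.0, other scalings and filters, thinned libraries and each replicate left out.

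Named in full are members with an adjusted p under 0.05 and the 10 most abundant per length, and of each other list up to 4 called genes with the smallest p and a mean of at least 1 CPM. Other members are given in the detail that their values need.

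Labels carry replicate numbers that nothing ties to the column codes. Over 10827 genes, deviations from the group means correlated at 0.719, 0.460 and 0.744 for libraries of the same code and at most 0.109 for others, so the codes were taken to pair the libraries and a fit with the replicate block was made.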

Additional observations from a re-analysis of the deposited data

How the results depend on the processing

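The count of members lower in siCRP2 cells was 8, and 8 to 12 with other scalings, filters, thinned libraries and tools without the pairing. The count of higher members was 3, and 2 to 4 under the same alternatives. With the replicate block by code the counts were 16 and 5, and limma voom with that block gave 16 and 5. Leaving out 1 library gave 6 to 10 lower and 0 to 4 higher members, with 0 higher without siCRP2 B and 1 without siCRP2 C or siCTR B. The paired fit took no call away. LAMA5, LTBP1, LTBP3, LTBP4 and SDC3 kept their call in all 16 alternatives. FN1, HSPG2 and TGFBI, not called in the unpaired quasi-likelihood test, passed under DESeq2 (adjusted p = 0.00806, 0.0114 and 0.0305) and the edgeR exact test (adjusted p = 0.0269, 0.000346 and 0.00122). LTBP2 and NID2 passed unpaired under the edgeR exact test and limma voom, and AGRN, GPC6 and NID2 with no filter on low counts. Direction turned only in genes close to 0 or of few counts. Leaving out 1 library gave log2 fold changes of -0.26 to 0.081 for LAMB1, -0.16 to 0.11 for LAMB3, -0.13 to 0.061 for LAMC1, -0.34 to 0.099 for FBLN1, -0.026 to 0.44 for EFEMP1, -0.30 to 0.038 for SDC1, -0.20 to 0.095 for SDC2 and -0.67 to 0.47 for FBN2. FBN2, with 11 counts in siCRP2 cells and 9 in siCTR cells, was also at -0.068 with limma voom and at -0.0039 with limma voom and the block. The cause was not tested. Depth limits NID1, NID2, FBN2 and VCAN, with at most 28 counts in a group, and the 4 untested members.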

Other observations

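Enzymes that build and modify the sugar chains of proteoglycans were counted in the same test. Among all genes tested, 11.5% were lower and 12.5% higher, and 17.8% and 19.5% when paired, and a list share near these values is no result about the list. Of 6 glycosaminoglycan linker enzymes, 2 were lower (33.3%) and 0 higher (3 and 2 when paired), and B3GALT6 and XYLT2 fell by 0.49 and 0.38 on the log2 scale. Of 17 heparan sulfate enzymes, 3 were lower (17.6%) and 0 higher (6 and 2 when paired). EXTL3, which starts the heparan sulfate chain, averaged 27.0 CPM in siCRP2 cells and 77.2 CPM in siCTR cells (log2 fold change -1.51, SE 0.111, adjusted p = 6.66e-08), and the sulfotransferases HS6ST1 and HS6ST3 fell by 0.57 and 0.95. Of 16 chondroitin and dermatan sulfate enzymes, 4 were lower (25.0%) and 1 higher (6.25%) (8 and 2 when paired), and CHPF, UST, CHST14 and CHST12 fell by 0.72, 1.08, 0.51 and 0.39.

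Of 9 hyaluronan enzymes and receptors other than CD44, 2 were lower (22.2%) and 2 higher (22.2%) (3 and 3 when paired). CEMIP, which takes part in hyaluronan breakdown, had 300.3, 546 and 529 CPM in siCRP2 cells, against 1010.2, 1069.7 and 1247 CPM in siCTR cells (log2 fold change -1.27, SE 0.258, adjusted p = 0.0209). HYAL2, a hyaluronidase, fell by 0.43, and CEMIP2 and HMMR rose by 0.31 and 0.49 on the log2 scale. Of 13 enzymes that glycosylate dystroglycan, the laminin receptor, 3 were lower (23.1%) and 2 higher (15.4%), also when paired. POMT2 and POMGNT1 fell by 0.92 and 0.46, and POMGNT2 and RXYLT1 rose by 0.55 and 0.50 on the log2 scale.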
